A study of Saccharomyces cerevisiae with 6 samples.

Results

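The RTA1-like family is a group of fungal membrane proteins that span the membrane several times and are linked to the movement of lipids and related molecules. Its 4 genes in budding yeast (Saccharomyces cerevisiae), RSB1, RTA1, PUG1 and YLR046C, were taken from a list of names. They are 4 of the 6002 protein-coding genes on the nuclear chromosomes in a gene table of assembly R64. Each gene was examined for binding of the transcription factors Pdr1 and Pdr3 in its upstream region. The family was chosen with earlier results of these data known. Its membership was taken as given, since peak lists hold nothing that could test it.

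Binding was measured by CUT&RUN, in which an antibody on permeabilised nuclei recruits a fused micrococcal nuclease that cuts out the DNA beside the bound protein. All strains were grown in YPD, a rich medium, at 30 °C. For Pdr1 there were 2 anti-c-Myc libraries from the strain labelled YRP10, and for Pdr3 there was 1 from the strain labelled Pdr3_3xmyc. The labels give neither the tag of YRP10 nor whether the Pdr1 replicates came from separate cultures, and they name 2 catalogue numbers for the c-Myc antibody. Each strain also had rabbit IgG control libraries, which were not analysed here, so no control antibody value stands beside the values below. The Pdr3 library has no replicate.

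Pdr1 and Pdr3 are related zinc-cluster transcription factors that switch on the PDR (pleiotropic drug resistance) genes, among them drug-exporting transporters, lipid transfer proteins and enzymes of sphingolipid synthesis. Among the family, Rsb1 is known for the release of sphingoid long-chain bases from the cell and for resistance to added phytosphingosine, which gave the gene its name. Rta1 was found through resistance to an aminocholesterol, Pug1 through uptake of protoporphyrin and release of haem, and YLR046C has no standard name in the gene table. A binding map of this kind says where the factors were detected and not whether transcription of the gene changes.

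The peak lists held 792 peaks for Pdr1 replicate 1, 485 for Pdr1 replicate 2 and 7 for Pdr3. Start, end, summit (the base of strongest signal) and fold enrichment of a peak are the authors' own values, from their peak caller. Fold enrichment had a median of 4.86 in replicate 1, 4.85 in replicate 2 and 5.48 in the Pdr3 list. No listed peak had a −log10 q under 5.05 for Pdr1 or under 7.46 for Pdr3. Read depth is unknown. A gene was counted as having a summit when 1 lay within 1000 bp upstream of its annotated start.

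The 4 genes fell into 3 patterns. RSB1 had a strong peak in all 3 lists, RTA1 had weak to moderate Pdr1 peaks and none for Pdr3, and PUG1 and YLR046C had no peak in any list. Counted per list, 2 of the 4 genes had a summit upstream in Pdr1 replicate 1, where 15.5% of all genes had one. In Pdr1 replicate 2 it was the same 2 genes, RSB1 and RTA1, against 10.2% of all genes. In the Pdr3 list it was 1 of the 4, RSB1, against 0.167% of all genes. Joining the Pdr1 peaks that had 1 bp or more in common between replicates gave 409 shared regions, and 2 of the 4 genes had the summit of a shared region upstream, against 8.95% of all genes. The 4 genes were chosen with earlier results of these data known, so these counts are a description, and no test was made.

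**Figure D1:**
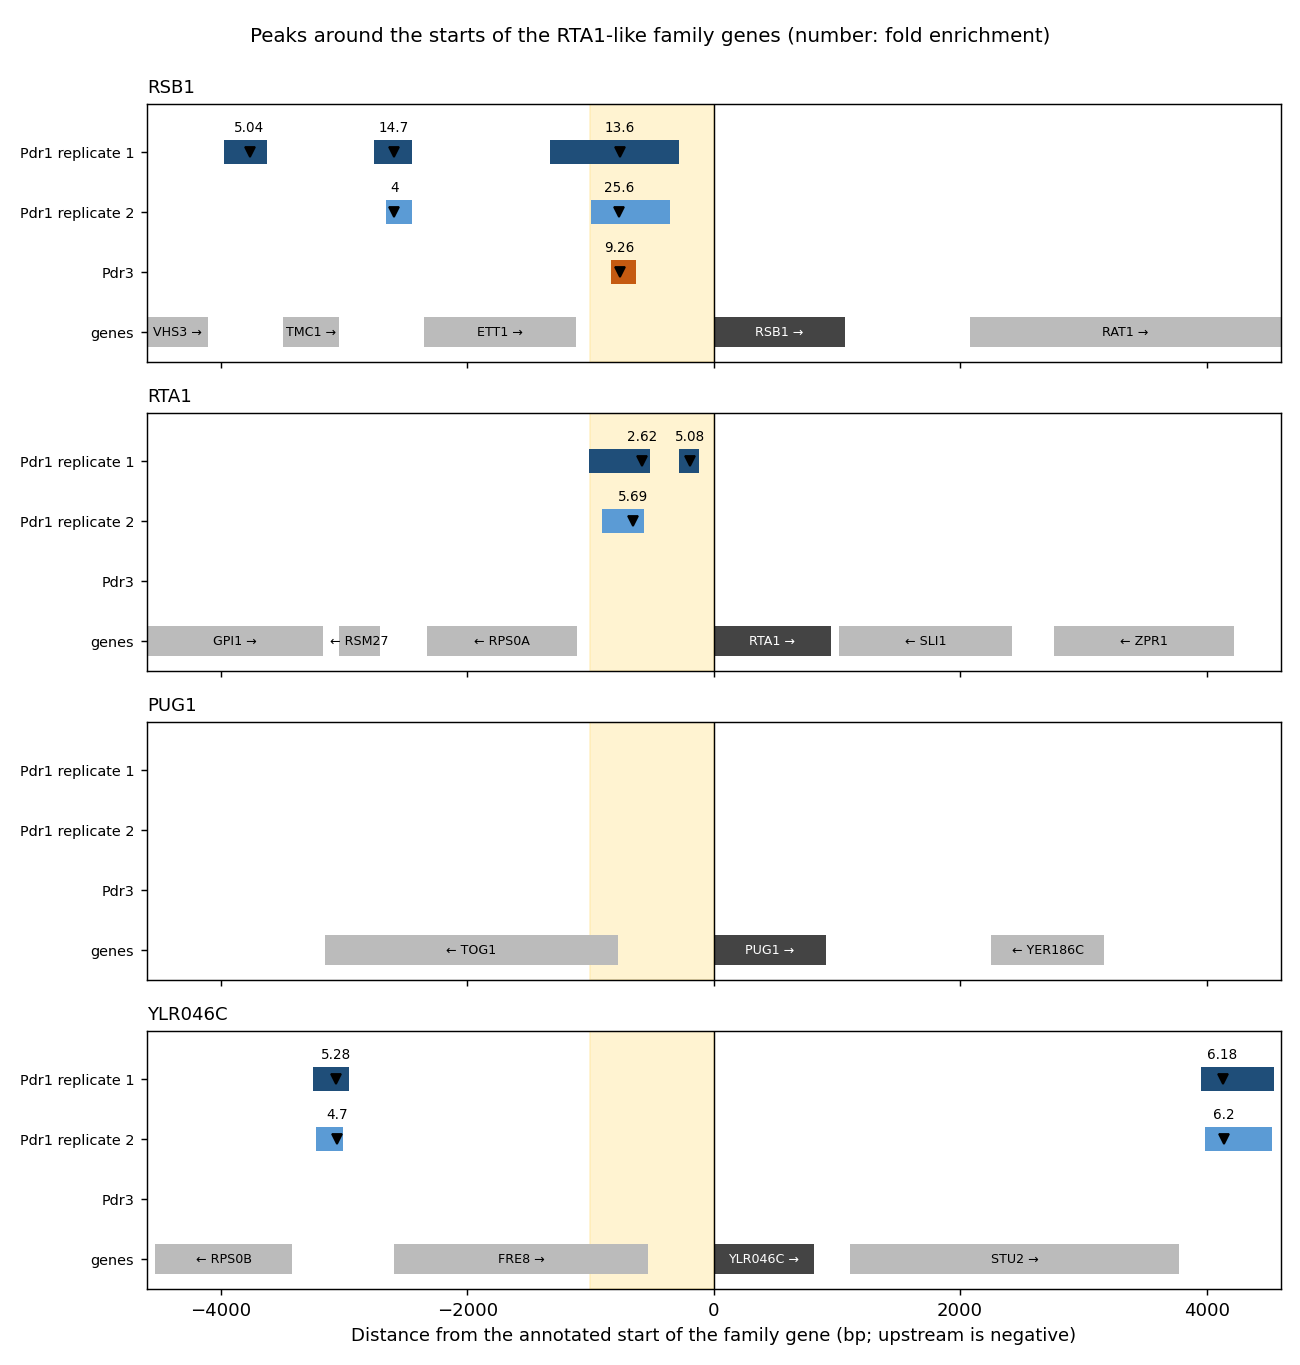
Peaks around the annotated starts of RSB1, RTA1, PUG1 and YLR046C, by distance from the start in bp, with upstream to the left. Coloured bars are peaks of each list, black triangles their summits, the numbers their fold enrichments, grey bars the annotated genes with an arrow for their direction, and the yellow band the 1000 bp upstream. RSB1 has a peak in all 3 lists about 764 bp upstream, RTA1 has 3 Pdr1 peaks spread over the band, and the bands of PUG1 and YLR046C are empty.

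RSB1 (YOR049C) lies on chromosome XV at 422668 to 423732 on the C strand of R64. In Pdr1 replicate 1 its peak ran from 424013 to 425061, with its summit at base 424495 and a fold enrichment of 13.6. In Pdr1 replicate 2 the peak ran from 424084 to 424729, with its summit at base 424497 and a fold enrichment of 25.6. The Pdr3 peak ran from 424362 to 424563, with its summit at base 424496 and a fold enrichment of 9.26. All 3 summits lay at nearly the same base.

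The RSB1 peaks stood high within each list. By fold enrichment they ranked 20 of 792 in replicate 1, 1 of 485 in replicate 2 and 2 of 7 in the Pdr3 list. By −log10 q they ranked 5, 2 and 3, with values of 250.0, 209 and 79.9. The Pdr1 peaks were also broad: at 1049 bp the replicate 1 peak was wider than 98.1% of its list, and at 646 bp the replicate 2 peak was wider than 94.4% of its list. The Pdr3 peak was 202 bp wide and lay wholly inside both Pdr1 peaks. Folds and ranks of the lists were not compared with each other, because the lists differ in length and their depth is unknown.

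The position of the RSB1 summit was almost identical in the 3 libraries. It lay 763 bp upstream of the annotated start in replicate 1, 765 bp in replicate 2 and 764 bp for Pdr3. The Pdr1 summits were thus 2 bp apart. A distance of 2 bp or less was found in 13.2% of the 409 shared regions, whose median distance was 27 bp. The Pdr3 summit stood between them, 1 bp from either. Across the 7 Pdr3 peaks the nearest replicate 1 summit was 0 to 40 bp away and the nearest replicate 2 summit 0 to 36 bp away. By the larger of these distances the PDR5 peak, with 0 bp to both, was the closest, and the RSB1 peak followed it.

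The RSB1 summit was also far from its gene. Among the genes with a summit upstream in replicate 1, the summit nearest to the start lay at a median of 375 bp (quartiles 257 and 559 bp), and it was more than 700 bp away in 12.1% of them. In replicate 2 the median was 409 bp (quartiles 298 and 608 bp), with 15.2% beyond 700 bp. RSB1 has a long upstream space of 1113 bp to the next annotated protein-coding gene, longer than that of 87.9% of genes, and the median over all genes was 448 bp. Among genes with a summit upstream the median space was 721 bp in replicate 1 and 788 bp in replicate 2. RTA1 has a space of 1109 bp. Of the 10 genes with a Pdr3 summit upstream, RGL1 at 913 bp and SLA1 at 899 bp had it farther away than RSB1. For both of these the summit lay inside or beyond the neighbouring gene, since their upstream spaces were 385 and 220 bp. The next after RSB1 was SNQ2, a drug exporter gene, at 603 bp, also past the end of its upstream space of 535 bp. The other 6 distances ran from 136 bp at LDB7 to 474 bp at TPO1, which encodes a polyamine exporter.

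**Figure D2:**
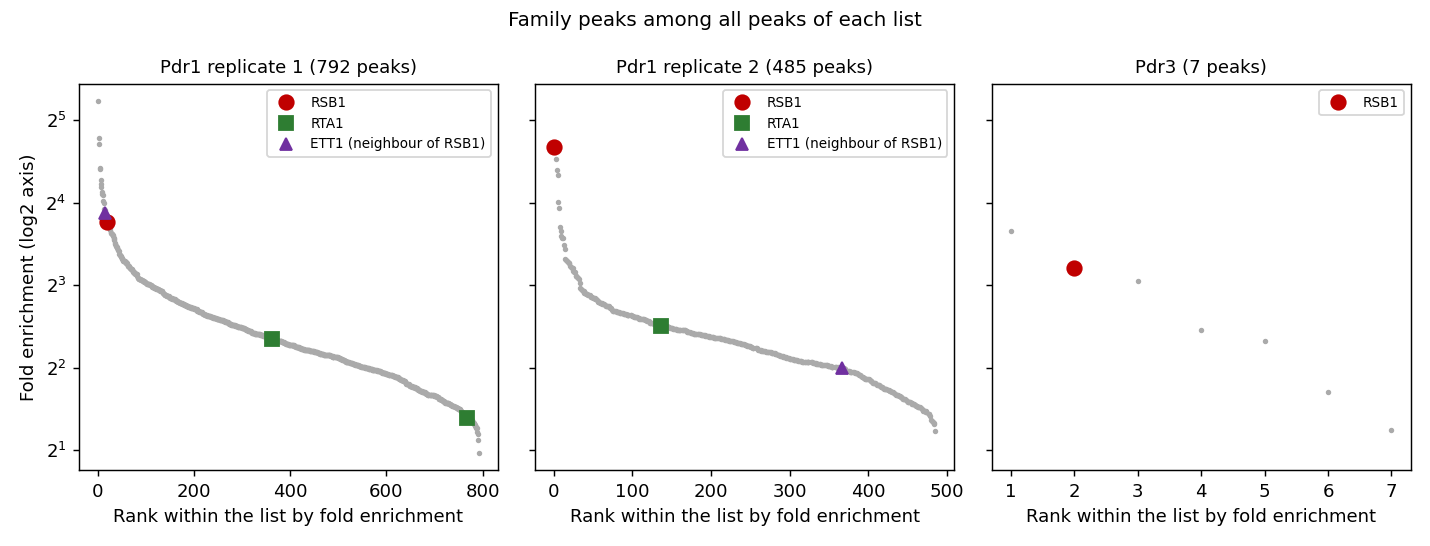
Fold enrichment (log2 axis) of every peak against its rank within its list, 1 panel for each list. Red circles are the RSB1 peak, green squares the RTA1 peaks and purple triangles the peak upstream of ETT1, the gene next to RSB1. RSB1 ranks 20, 1 and 2, the RTA1 peaks rank 363 and 768 in replicate 1 and 136 in replicate 2, and the ETT1 peak ranks 16 and 366.

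The genes beside RSB1 were then examined, because a summit can belong to more than 1 gene. The upstream neighbour is ETT1 (YOR051C), which acts in translation termination and is read in the same direction, so that the RSB1 summits lie between the end of ETT1 and the start of RSB1. The distance from the summit to the end of ETT1 was 351 bp in replicate 1, 349 bp in replicate 2 and 350 bp for Pdr3. No other gene held the summit within 1000 bp upstream of its start. The replicate 1 peak reached 216 bp into ETT1, while the replicate 2 and Pdr3 peaks did not reach it. Of all genes with a tandem upstream neighbour, as RSB1 has, 13.2% had a summit upstream in replicate 1 and 7.94% in replicate 2. Of those with a divergent upstream neighbour, as RTA1 has, it was 17.7% and 12.3%. The downstream neighbour RAT1, a nuclear exonuclease gene, had no summit upstream in any list.

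ETT1 had a Pdr1 peak of its own, 241 bp upstream of its start, with the summit at base 426325 in both replicates. In replicate 1 the RSB1 peak had a fold enrichment of 13.6 and the ETT1 peak 14.7, with −log10 q of 250.0 and 80.6. In replicate 2 the RSB1 peak had a fold enrichment of 25.6 and the ETT1 peak 4.00, with −log10 q of 209 and 14.8. By fold enrichment the order of this neighbouring pair thus differed between the replicates, and by −log10 q RSB1 was above ETT1 in both. The Pdr3 list held the RSB1 peak and no ETT1 peak. A further peak in replicate 1, at 5.04-fold, lay 275 bp upstream of TMC1, the gene after ETT1, and had no counterpart in the other lists.

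RTA1 (YGR213C) lies on chromosome VII at 918512 to 919465 on the C strand. Its Pdr1 peaks ranked well below those of RSB1 in both replicates, and the strongest peaks of the replicates did not overlap. In replicate 1 the stronger peak ran from 919583 to 919743, with its summit 190 bp upstream of RTA1, a fold enrichment of 5.08 and a −log10 q of 18.3. A second replicate 1 peak ran from 919985 to 920477, with its summit 578 bp upstream, a fold enrichment of 2.62 and a −log10 q of 6.97. In replicate 2 the single peak ran from 920028 to 920373, with its summit 651 bp upstream, a fold enrichment of 5.69 and a −log10 q of 16.8. The Pdr3 list held no peak on chromosome VII.

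Within replicate 1 the RTA1 peaks ranked 363 and 768 of 792 by fold enrichment, so that 54.2% and 2.90% of the list lay below them. The replicate 2 peak ranked 136 of 485, above 72.0% of its list. Having 2 summits upstream was uncommon among all genes: in replicate 1, 0.916% had 2 or more. These were 55 genes, where 931 had at least 1 summit upstream. The upstream space of RTA1, 1109 bp, was longer than that of 87.8% of genes.

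The replicate 2 summit was 461 bp from that of the stronger replicate 1 peak, and the peaks did not overlap. It was 73 bp from that of the weaker replicate 1 peak, and that pair formed the shared region at RTA1. In 24.0% of the 409 shared regions the replicate summits were at least as far apart. With peaks of a −log10 q of at least 10, the weaker replicate 1 peak dropped out, and RTA1 had a summit in each replicate but no shared region. The summit nearest to RTA1 thus rested on replicate 1 alone, and the shared region on a peak near the bottom of the replicate 1 list.

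**Figure D3:**
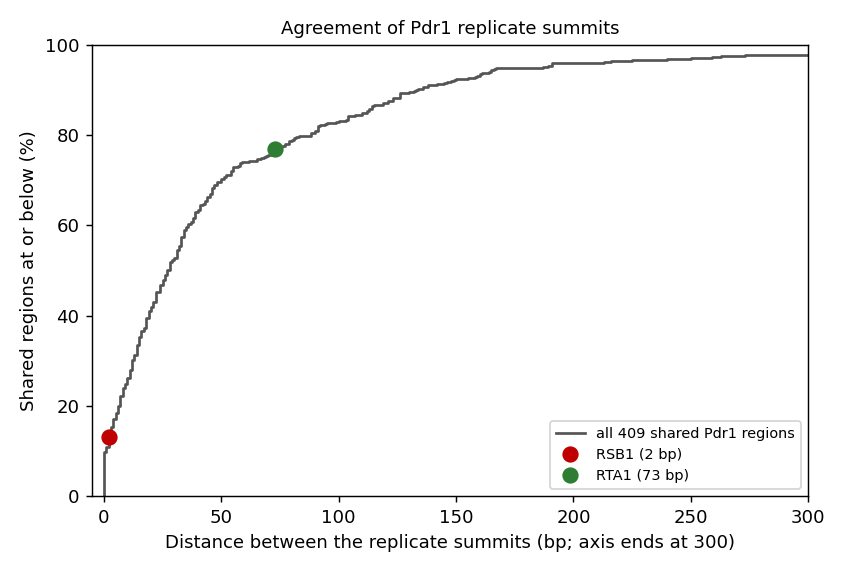
Share of the 409 shared Pdr1 regions (vertical axis, %) whose replicate summits were no farther apart than the distance on the horizontal axis, in bp. RSB1, with 2 bp, lies near the low end at 13.2%, and RTA1, with 73 bp, at 76.8%.

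Unlike RSB1, RTA1 shares its upstream space with a divergent neighbour, the ribosomal protein gene RPS0A (YGR214W), 1109 bp away. All 3 RTA1 summits also lay within 1000 bp upstream of RPS0A, whose product belongs to the small ribosomal subunit. The stronger replicate 1 summit was 190 bp from RTA1 and 920 bp from RPS0A. The weaker replicate 1 summit was 578 bp from RTA1 and 532 bp from RPS0A, and the replicate 2 summit was 651 bp from RTA1 and 459 bp from RPS0A. The shared region thus lay nearer to RPS0A, and the peak nearest to RTA1 was seen in replicate 1. Which of the genes a summit serves cannot be told apart from these lists. The downstream neighbour SLI1, an acetyltransferase gene known for resistance to the sphingolipid synthesis inhibitor myriocin, is read towards RTA1 and had no summit upstream in any list.

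PUG1 (YER185W) lies on chromosome V at 559454 to 560365 on the W strand, and no list held a summit within 1000 bp upstream of it. It shares a space of 773 bp with the divergent gene TOG1, which encodes a zinc-cluster transcription factor of fatty acid use, and TOG1 had no summit upstream either. The downstream neighbour YER186C had none. The nearest summit in replicate 1 was 12758 bp away, upstream of PDA1, a subunit gene of pyruvate dehydrogenase, with a fold enrichment of 3.40, and 8 annotated genes lay in between. In replicate 2 the nearest summit was 61717 bp away, with 26 genes in between. A nearer summit was found for 74.4% of all genes in replicate 1 and for 96.9% in replicate 2. Chromosome V itself held 51 replicate 1 peaks, 33 replicate 2 peaks and no Pdr3 peak.

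YLR046C lies on chromosome XII at 238001 to 238813 on the C strand, and no list held a summit within 1000 bp upstream. Its upstream neighbour in the same direction is FRE8, a ferric reductase gene, 533 bp away, and its downstream neighbour is STU2, which encodes a microtubule-binding protein and had no summit upstream. The nearest Pdr1 summit was 3064 bp upstream of YLR046C in replicate 1 and 3056 bp in replicate 2, beyond FRE8. These summits lay 470 and 462 bp upstream of the start of FRE8, which had no summit upstream in the Pdr3 list. For 33.0% of all genes in replicate 1 and 22.8% in replicate 2 a summit lay nearer. The only Pdr3 peak on chromosome XII, that of TPO1, was 154483 bp away. With a summit missing, a site that fell short of the authors' threshold cannot be separated from one that was not bound.

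The surroundings of RTA1 and YLR046C are alike in 1 respect. RTA1 lies next to RPS0A, and YLR046C lies 3418 bp from RPS0B, the near-identical partner of RPS0A, with FRE8 between them. The Pdr1 summits nearest to YLR046C lay in the divergent space of 824 bp between FRE8 and RPS0B. They were 355 bp upstream of RPS0B and 470 bp upstream of FRE8 in replicate 1, and 363 and 462 bp in replicate 2. Their fold enrichments were 5.28 (rank 338) and 4.70 (rank 259), and their summits were 8 bp apart. At RPS0A the replicate summits of the shared region lay 532 and 459 bp upstream, with fold enrichments of 2.62 and 5.69. Peaks were thus listed upstream of both ribosomal protein genes. Of all genes with a divergent upstream neighbour, as both have, 17.7% had a summit upstream in replicate 1 and 12.3% in replicate 2. Only at RPS0A was that space also the upstream space of a family gene. At either space, which of the genes a summit serves cannot be told apart from these lists. How the authors placed reads that match both copies is not stated in the sources used here.

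The genes whose peaks were most like those of RSB1 and RTA1 were picked by the smallest sum of absolute differences in log2 fold enrichment, over the lists in which the gene had a summit. For RSB1 there were 9 other genes with a summit in all 3 lists. PDR5, the main drug efflux pump gene, was the nearest with a sum of 0.398 over 3 lists, and had fold enrichments of 12.8 and 23.1 for Pdr1 and 8.26 for Pdr3. PDR15, its paralog, followed at a sum of 2.32, with 9.67, 12.1 and 5.48. LDB7, tied with PDR3 and SLA1 with which it shares its peaks, followed at 2.82, with 19.3, 6.99 and 12.6. For RTA1, 525 genes outside its own peaks had a summit in both Pdr1 replicates and not in the Pdr3 list. RPS0A, which holds the same peaks as RTA1, was left out by this rule. RTA1 entered with its strongest peak of each replicate, 5.08-fold and 5.69-fold, which did not overlap and had summits 461 bp apart. At its shared region the fold enrichments were 2.62 and 5.69. By the strongest peaks, RPS23A and YGR117C, a divergent pair with common peaks (5.11-fold and 5.58-fold), were the nearest at 0.0347 over 2 lists. NDE1, a mitochondrial NADH dehydrogenase gene, followed at 0.0386 (5.05-fold and 5.57-fold). With 2 or 3 values per gene, likeness of this kind is a description.

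Genes related to the family by function were set beside it. Of 18 reported Pdr1 or Pdr3 target genes other than RSB1 and RTA1, 17 had a summit upstream in replicate 1, 13 in replicate 2 and 5 in the Pdr3 list. The shares of all genes were 15.5%, 10.2% and 0.167%. These targets were listed with earlier results of these data known, so their counts are a description. The 5, which shared the pattern of RSB1, were PDR5, SNQ2, PDR15, PDR3 and TPO1. RTA1, with summits for Pdr1 and none for Pdr3, had the lists of YOR1, PDR10, PDR16, IPT1, HXT9, RPN4, BDH2 and CIS1. Those 8 were among the 525 genes outside the RTA1 peaks with this pattern. Each of these 8 had a higher fold enrichment than RTA1 in replicate 1, with the lowest 7.68 at HXT9. In replicate 2 PDR10 with 4.00 and CIS1 with 4.63 lay below RTA1 with 5.69.

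Rsb1 handles sphingoid bases, and 17 genes for the synthesis, breakdown and control of these bases were counted. In replicate 1, 6 of the 17 had a summit upstream and in replicate 2, 4 of the 17, against 15.5% and 10.2% of all genes. A shared region lay upstream of 3 of the 17, against 8.95% of all genes. The 3 were LAC1, a ceramide synthase subunit (16.2-fold and 13.1-fold), YPC1, a ceramidase (7.44-fold and 2.94-fold), and LCB3, a sphingoid base phosphate phosphatase (3.97-fold and 5.34-fold). SUR2, the sphingoid base hydroxylase gene, had a peak of 12.1-fold in replicate 1 alone, as did ORM1 and ORM2, the regulators of the first enzyme of the pathway, with 8.37 and 3.82. LCB1, a subunit of that enzyme, had a peak of 3.30-fold in replicate 2 alone. In the Pdr3 list 0 of the 17 had a summit, where 0.167% of all genes had one.

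Of 9 genes of haem synthesis and breakdown, which stand beside PUG1 by function, 5 had a summit upstream in replicate 1, against 15.5% of all genes, and 2 in replicate 2, against 10.2%. HEM12, uroporphyrinogen decarboxylase, had fold enrichments of 5.41 and 9.73, and HEM13, coproporphyrinogen oxidase, 3.94 and 6.83. HEM1, HEM2 and HEM4 had a peak in replicate 1 alone, at 5.07, 5.79 and 3.16. The 10 listed genes for phospholipid flippases and their regulators had 1 summit upstream in replicate 1, at DNF2 (6.17-fold), and none in the other lists. Their 1 of 10 in replicate 1 stands against 15.5% of all genes, and their 0 of 10 for shared regions against 8.95%, so these counts are near the share of all genes.

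**Figure D4:**
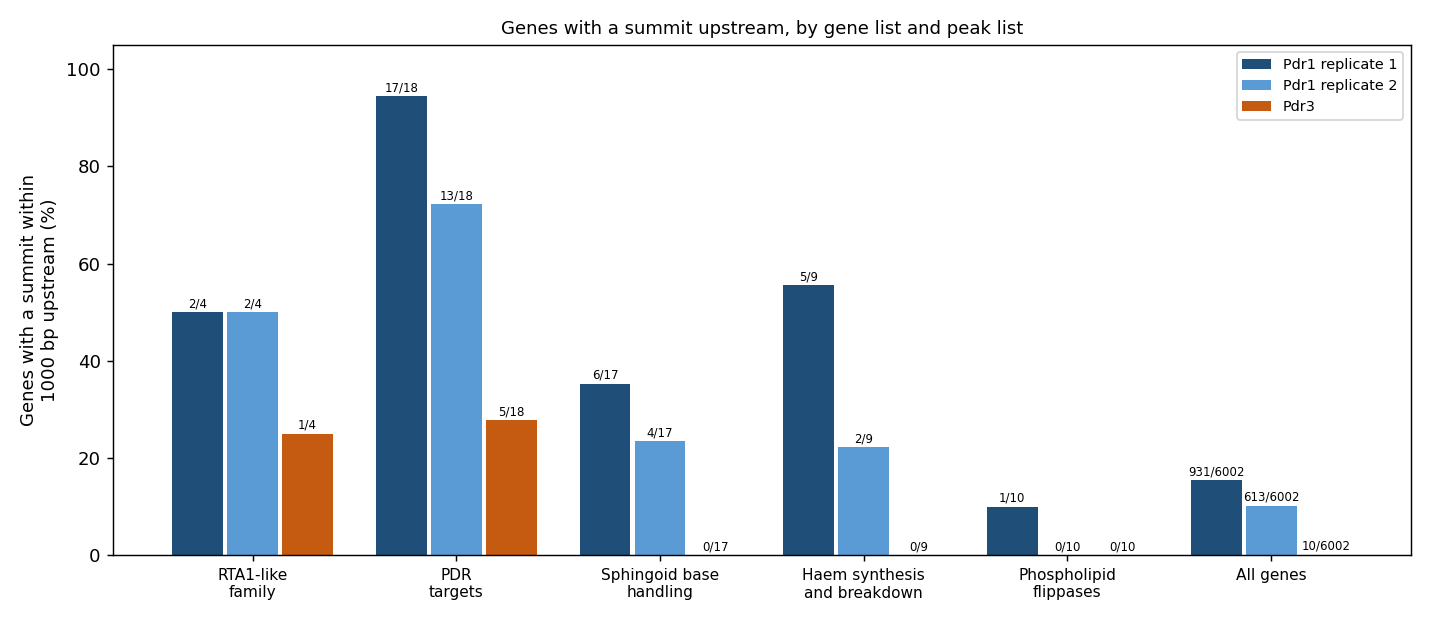
Share of genes with a summit within 1000 bp upstream (%), for the RTA1-like family, 4 related gene lists and all 6002 genes, with 1 bar for each peak list and the counts above the bars. The family stands at 2 of 4 genes in each Pdr1 list and 1 of 4 in the Pdr3 list. The genes for flippases and their regulators stand at 1 of 10 in replicate 1 and 0 of 10 in the other lists.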

How the data were processed

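CUT&RUN peak lists of 3 anti-c-Myc libraries (2 for Pdr1, 1 for Pdr3) were used. The submitters' processing notes name Trimmomatic 0.33, Bowtie2, Picard, deepTools and MACS2 2.1.1 and the builds R64 and sacCer3, without roles or settings. The deposited peak value was read as a linear fold enrichment from the narrowPeak layout, over a reference that no source gives. Of the deposited −log10 p-value and −log10 q-value, only the q-value was used, to filter and rank peaks. In 100.0% of peaks the deposited score was the whole part of 10 times that value. Without read counts, depth and precision are unknown.

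Gene models came from a RefSeq table of R64, with the strand read from the systematic name. Positions count from 1. Assignment and overlap were computed in Python 3.11.15 with pandas 2.3.3 and tested on simulated data: 200 of 200 planted summits were assigned, and 0 of 200 planted 1 bp outside the window. The family and the gene lists were chosen with earlier results of these data known. Named genes were the members, their nearest neighbours, genes sharing their summits, the 3 genes most like each member, and listed genes with the lists of RSB1. Other genes (RGL1, SLA1, TMC1, PDA1, RPS0B, and listed genes with other patterns) were named after their values were seen. No sequence was used here, so response elements and protein identity were not examined. The planned other settings were a stricter q, other windows, moved summits, other overlap rules and ranks by −log10 q.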

Additional observations from a re-analysis of the deposited data

How the results depend on the processing

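The number of family genes with a summit upstream was recomputed under 32 combinations of list and setting and stayed within 1.5 times the reported count in 27. The other 5 were the following. With 500 bp upstream the count was 1 in Pdr1 replicate 1 (RTA1), where 10.8% of all genes had a summit. It was 0 in Pdr1 replicate 2, 0 in the Pdr3 list and 0 for shared regions, against 6.48%, 0.1% and 5.61% of all genes. The construction explains this, since the RSB1 summits lie 763 to 765 bp and the RTA1 replicate 2 summit 651 bp from the start. When peaks needed a −log10 q of 10 or more, the count for shared regions was 1, because the weaker RTA1 peak of replicate 1 (6.97) left the list. The share of all genes with a shared region upstream was then 6.66%. Leaving out a Pdr1 replicate leaves the count of the other replicate's list, 2 genes either way. These entries, which are among the 27, repeat counts already given and add no check. A window of 2000 bp, a window ending at the next gene, any overlap of peak and window, and summits moved by 100 bp either way gave 2, 2 and 1 genes in the 3 lists. With 2000 bp the shares of all genes were 19.8%, 13.5% and 0.217%. A window ending at the next gene gave 13.4%, 8.83% and 0.1%, and any overlap 17.0%, 11.1% and 0.183%. Summits moved up gave 15.5%, 10.3% and 0.183%, and moved down 15.7%, 10.2% and 0.15%. PUG1 and YLR046C had no summit under any of these settings. A reciprocal overlap of 50% and summits within 100 bp lowered the shared regions from 409 to 304 and 345, and both family regions were kept. The share of all genes with a summit upstream moved by over 1.5 times in 4 of 35 recomputations. With 500 bp it was 6.48% in Pdr1 replicate 2 (reported 10.2%), 5.61% for shared regions (8.95%) and 0.1% in the Pdr3 list (0.167%), and a window ending at the next gene also gave 0.1% in the Pdr3 list. No paired analysis was possible because no list of the IgG libraries that share replicate numbers was used here. Response element matches and protein identity were not run.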

Other observations

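In the space between RTA1 and RPS0A, replicate 1 had its stronger peak at the RTA1 end (161 bp wide, wider than 27.3% of its list) and its weaker, broader peak (493 bp, wider than 82.4% of its list) towards RPS0A. The replicate 2 peak (346 bp) lay wholly inside the broader one. The summit of the broader peak stood 12.0% of the way along it, at the end towards RTA1. A peak for the TMC1 upstream region and the peak 190 bp upstream of RTA1 were each listed in 1 of the 2 Pdr1 replicates.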
